A study of Mus musculus with 24 samples.

Results

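The 12 male nucleus accumbens libraries of this RNA-seq series were split by a property of the reads themselves, the share of uniquely mapped read pairs that fell on no annotated exon on the sense strand. The 6 libraries with the highest share were set against the 6 with the lowest, so the split used 12 of the 24 libraries in all, and each side held 3 control (Con) and 3 maternally separated (MSUS) mice. All animals were C57BL/6 mice by the labels (C57BL/6J in the study's methods) killed at 50 days of age, and each library came from bilateral nucleus accumbens punches of 1 mouse, with 6 mice of either sex raised as Con and 6 as MSUS. MSUS pups had been separated from the dam every day in the first 2 weeks of life with unpredictable maternal stress (the labels give 2 h a day and the study's methods give 3 h), whereas Con mice were raised undisturbed. The labels do not tie the mice to litters or dams, so the p-values measure the spread between these mice only.

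The libraries were made from total RNA after depletion of ribosomal RNA, without selection of poly(A) tails. Such libraries hold nuclear RNA together with cytoplasmic mRNA, including pre-mRNA whose introns are still being transcribed or have not yet been spliced out. Neuronal genes for synaptic scaffolds, cell adhesion and ion channels are among the longest genes of the genome and consist almost wholly of intron. Read pairs from their introns are not counted for the gene when only exons are counted, and they enter the unassigned share. Some introns, however, hold small annotated models of their own, most of them single-exon entries supported by little transcript evidence, and a pair inside such a model is counted for it.

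In the 6 high libraries the unassigned share was 44.7% (MSUS male 1), 40.6% (Con male 1), 39.6% (Con male 3), 39.5% (MSUS male 5), 39.4% (Con male 4) and 37.8% (MSUS male 3). The 6 low libraries had 37.4% (Con male 6), 36.5% (Con male 2), 35.0% (MSUS male 4), 34.7% (Con male 5), 33.7% (MSUS male 2) and 32.2% (MSUS male 6). The libraries were chosen by these measured values, which are given as a description. The 2 libraries next to the threshold, at 37.8% and 37.4%, lay closer to each other than to any other library. Counting without regard to strand gave the same 6 and 6, with mean shares of 39.3% and 33.9%. Counts on the opposite strand of genes were in the mean 5.11% and 5.01% of the gene counts of both strands. The share does not separate introns from unannotated intergenic sequence.

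The split did not fall evenly over the library numbers in the labels: 5 of the 6 high libraries were numbered 1 to 12, and 5 of the 6 low libraries 13 to 24, the exceptions being Con male 4 and Con male 5. What these number ranges stand for in handling or sequencing is not stated, and the labels give an estrous stage to the 6 males numbered 7 to 12, which was not used. Gene counts per library ran from 39923666 to 57452242 in the high libraries and from 51596417 to 70575745 in the low ones. Markers of cortical excitatory neurons differed widely between mice, with a median log2 CPM from 2.87 to 4.33 in the high and from 2.41 to 6.19 in the low libraries. Xist was at 25 counts or fewer in every male library and at 56771 or more in every female one, so the sexes matched their labels.

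**Figure D1:**
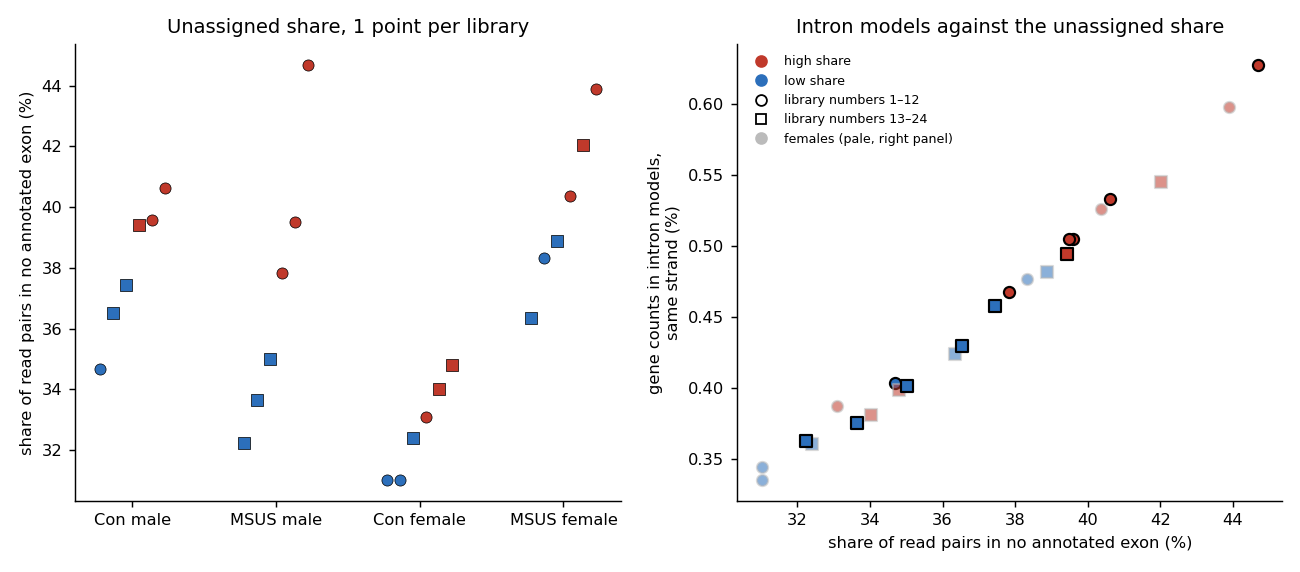
The left panel shows the unassigned share (percent of unique pairs on genes or on no feature) in each of the 24 libraries by group, and the right panel shows the percent of gene counts on single-exon models in introns against that share. The 6 high male libraries lie between 0.468% and 0.628% on the right and the 6 low ones between 0.363% and 0.458%.

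Single-exon models inside introns were the class with most calls toward the high libraries. Of 2193 such models that lie on the sense strand of an intron of a protein-coding gene and passed the filter on low counts (3649 are in the files), 651 were higher in the high libraries and 2 were lower at an adjusted p under 0.10. Over all 21270 genes tested, 1544 (7.26%) were higher and 1480 (6.96%) lower. The median log2 fold change was 0.30 for these models against -0.01 for all genes, and 1937 of the 2193 were above 0. Among the 674 models with a mean of at least 100 normalized counts (counts divided by the library's size factor), 416 were higher, 1 was lower and the median was 0.38.

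Models were ranked if called, with a mean of at least 100 normalized counts and no overlap of the 2 sides. Among these the largest rises lay in long neuronal genes. Outside that filter a model in Magi3 reached a log2 fold change of 1.48. Their last 50 bases on the sense strand are shown because a transcript with its own 3′ end would usually carry a polyadenylation signal there, most often AATAAA, and capitals mark that motif where it occurs. The first 4 are the intron models among the largest rises, in introns of Dgkb, Dlg2, Kcnd2 and Cntnap2, and none holds the motif in this window. The fifth, Gm43879 in an intron of Cntnap2, was picked after its values were seen as the model with the largest rise, without overlap of the 2 sides, that does hold it.
Gm48713 (chr12:37938463-37941308, + strand): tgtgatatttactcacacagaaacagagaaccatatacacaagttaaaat
Gm45183 (chr7:91304695-91306191, + strand): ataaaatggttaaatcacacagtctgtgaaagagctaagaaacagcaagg
5330437M03Rik (chr6:21681301-21685383, + strand): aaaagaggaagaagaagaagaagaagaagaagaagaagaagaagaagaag
Gm43874 (chr6:45245637-45248434, + strand): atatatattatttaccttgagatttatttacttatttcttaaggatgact
Gm43879 (chr6:45080746-45084505, + strand): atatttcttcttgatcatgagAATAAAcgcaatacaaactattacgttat

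Coordinates are those of GRCm38. Searched on the sense strand only, AATAAA stood in the last 50 bases of 212 of the 2193 intron models (9.67%) and of 82 of the 651 that were higher (12.6%). The share was 37.0% for 2077 lncRNA genes with several exons, 19.3% for 1105 single-exon models outside protein-coding genes and 56.8% for 15161 protein-coding genes, each taken at the end of its first listed transcript. Most intron models thus lack these letters at their annotated end.

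Gm48713 lies in an intron of Dgkb, which encodes a diacylglycerol kinase abundant in striatal neurons. It ranged from 184.0 to 322 normalized counts with a median of 207 in the high libraries, and from 81.7 to 139.9 with a median of 101 in the low ones. Its log2 fold change was 1.14 (SE 0.16, adjusted p = 0.0224 by edgeR's quasi-likelihood test, n = 6 against 6), and no high library overlapped a low one. Gm45183, in an intron of the postsynaptic scaffold gene Dlg2, ranged from 211 to 373 (median 235) against 84.6 to 163 (median 128), a log2 fold change of 1.07 (SE 0.18, adjusted p = 0.0224). In Kcnd2, which encodes a potassium channel subunit, 5330437M03Rik ranged from 114 to 196 (median 127) against 38.2 to 91.0 (median 68.5), and its log2 fold change was 1.02 (SE 0.20). Gm43874, in Cntnap2, a neurexin-family adhesion gene, ranged from 190.3 to 337 (median 218) against 86.0 to 171 (median 99.2), a log2 fold change of 1.01 (SE 0.21). In these 4 models the 2 sides did not overlap, and MSUS male 1, the library with the highest share, gave the highest value in each. Gm15809, a lncRNA gene with several exons on chromosome 13, was the fifth among the largest rises, from 116 ± 27.3 to 230.1 ± 59.9 (SD, n = 6 each; log2 fold change 0.99, SE 0.19).

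Summed over models, intron models took 0.522% ± 0.0558 of gene counts in the high and 0.405% ± 0.0349 in the low libraries (SD, n = 6 each). The exact permutation test over all ways to call 6 of 12 libraries high gave p = 0.00216, the smallest it can give, and an adjusted p of 0.0260 over 24 values tested per library. Intron pairs outside such models enter the share that set the split, so this order was not independent of the rule. Models on the opposite strand of an intron took 0.0397% and 0.0540% (adjusted p = 0.0693), in the opposite order. That share followed the library number range, from 0.0321% to 0.0453% in males numbered 1 to 12 and from 0.0484% to 0.0648% in males numbered 13 to 24. Con male 4, on the high side, was at 0.0497% and Con male 5, on the low side, at 0.0392%. Within library numbers 1 to 12 the median log2 CPM difference of the intron models was 0.28 (the 5 high libraries against Con male 5) and within 13 to 24 it was 0.27 (Con male 4 against the 5 low libraries), beside 0.00 and 0.01 for all genes. In both ranges most models were above 0, 1722 and 1761 of 2193. The direction of the class was therefore found within each number range, where 1 library stood alone on one side.

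**Figure D2:**
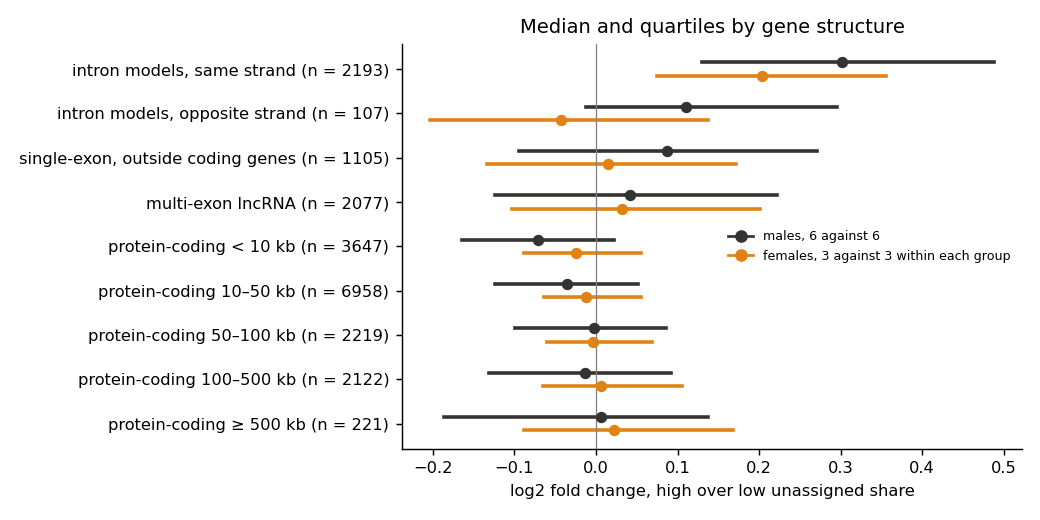
Median and quartiles of the log2 fold change, high over low, for 9 classes of gene structure in males and in females. Models in introns on the same strand stand apart, at 0.30 in males and 0.20 in females, and protein-coding genes spanning under 10 kb are at -0.07 in males and -0.02 in females.

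Other structural classes moved less. Single-exon models outside protein-coding genes had 88 higher and 6 lower of 1105 (median 0.09), lncRNA genes with several exons 113 higher and 21 lower of 2077 (median 0.04), and models on the opposite strand of an intron 5 higher and 1 lower of 107 (median 0.11). Protein-coding genes had 639 higher and 1436 lower of 15167 (median -0.04), and the counts in each direction differed with the length of the gene. Of 3647 that span under 10 kb, 76 were higher and 470 lower, and of 6958 that span 10 to 50 kb, 265 were higher and 704 lower. Genes of 50 to 100 kb (144 higher and 128 lower of 2219), 100 to 500 kb (130 and 120 of 2122) and 500 kb and over (24 and 14 of 221) had more even counts. As shares of gene counts, genes of 10 to 50 kb took 35.7% in the high and 36.2% in the low libraries (adjusted p = 0.0260, exact permutation test). Genes under 10 kb took 15.8% and 15.7% (adjusted p = 0.419, same test). The latter class holds the protein-coding genes of the mitochondrial genome, which took 3.27% in the high and 2.79% in the low libraries. Its share therefore does not describe short nuclear genes alone.

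The intron models were set beside the exons of their own host genes, since a host that is transcribed more would raise both. In 1163 of 1311 hosts (88.7%) the median of the models lay above the fold change of the host's exons, by a median of 0.26 on the log2 scale, and the median host was at 0.00. Of the hosts, 112 were higher and 82 lower, and in 53 of the 82 lower ones the models still had a median above 0. Kcnip4, encoding a potassium channel-interacting protein, holds 24 tested models, of which all 24 were higher with a median log2 fold change of 0.68, and its exons were at -0.03. Dlg2 had 19 of 19 models higher (median 0.71, exons 0.08), and Adgrb3, an adhesion receptor of synapses, 20 of 21 (median 0.70, exons 0.16). In Cntnap2, 14 of 24 were higher (median 0.65), while its exon counts were 12276 ± 779 in the high and 11322 ± 1709 in the low libraries (log2 fold change 0.12, SE 0.09, adjusted p = 0.439). Auts2 had 19 of 22 models higher (median 0.50, exons 0.15) and Ctnna2, which encodes a neuronal catenin, 9 of 9 (median 0.65, exons -0.07).

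In Ank2 and Fam155a fewer models passed the test, although every model lay above the host's exons. Ank2, encoding an ankyrin, had 4 of 12 models higher (median 0.26, exons -0.21), and none of the 11 models in Fam155a passed, with a median of 0.26 and exons at -0.47. Models within a host share its pre-mRNA and are not independent measurements. The annotation splits some introns into several neighbouring models, so the counts of models weigh long genes more.

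**Figure D3:**
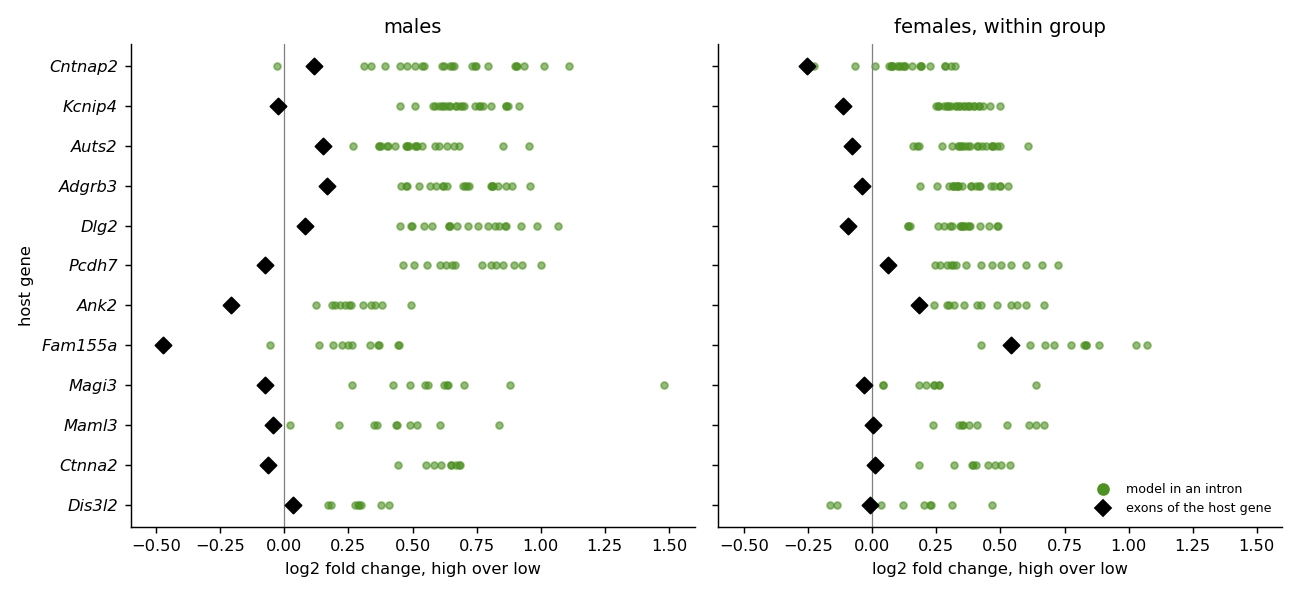
Log2 fold change, high over low, of intron models (dots) and host gene exons (diamonds) for the 12 hosts with most tested models. The left panel shows males and the right panel females split within group. In males all dots of Kcnip4, Dlg2, Adgrb3, Ank2 and Fam155a lie to the right of the host's diamond. The male diamonds of Ank2 and Fam155a are at -0.21 and -0.47. Their female diamonds are at 0.18 and 0.54, and the lowest female Fam155a dot is at 0.42.

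Long non-coding RNAs kept in the nucleus moved in part. Of 18 tested, 3 were higher and 1 lower, with a median log2 fold change of 0.08. Kcnq1ot1, an unspliced imprinted transcript that runs antisense through Kcnq1, ranged from 12546 to 16459 normalized counts (median 14507) in the high libraries and from 9837 to 11987 (median 10755) in the low ones, a log2 fold change of 0.42 (SE 0.08, adjusted p = 0.0244) with no overlap. Jpx, from the X-inactivation centre, rose by 0.23 and Dlx6os1, from the Dlx5/6 locus of forebrain inhibitory neurons, by 0.25, and the imprinted Peg13 fell by 0.21. Malat1, an abundant RNA of nuclear speckles, had 803132 ± 52305 against 706152 ± 37537 (log2 fold change 0.18, adjusted p = 0.106), and Meg3 204506 ± 28679 against 188829.7 ± 28792 (0.11, adjusted p = 0.575). Summed, the nuclear lncRNAs took 4.39% and 4.20% of gene counts (adjusted p = 0.419, exact permutation test). The most abundant nuclear RNAs thus did not pass the test.

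Among 17 structural RNAs and snoRNA hosts, Rmrp, the RNA of a mitochondrial RNA-processing ribonuclease, was the only one called, from 36031 ± 4322 to 44206 ± 4171 (log2 fold change 0.29, SE 0.08, adjusted p = 0.0472).

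Genes of the splicing machinery that are known to keep introns in nuclear polyadenylated transcripts were among the protein-coding genes that rose. Of 28 tested, 15 were higher and none was lower, with a median of 0.14. Srsf7, encoding a serine/arginine-rich splicing factor, ranged from 3480 to 4107 normalized counts (median 3763) in the high libraries and from 2877 to 3329 (median 3118) in the low ones, a log2 fold change of 0.28 (SE 0.05, adjusted p = 0.0246), without overlap. Other members that rose were the cyclin Ccnl1 (0.24), the splicing regulators Tra2a (0.23), Rbm39 (0.22), Srsf3 (0.21) and Tra2b (0.19), and Luc7l2 (0.22), a U1 snRNP-associated protein. Within library numbers 1 to 12 and 13 to 24, 27 and 24 of the 28 lay above 0. Counts per gene do not tell which isoforms were read.

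Zinc finger genes named Zfp, most of them nuclear transcriptional repressors, had 48 higher and 3 lower of 365 (median 0.02). Zfp950 went from 3257 ± 240 to 4213 ± 303 (log2 fold change 0.37, SE 0.06, adjusted p = 0.0224) without overlap. Of the protein-coding genes with the largest rises, Zfp934 (0.46) and Zxdb (0.47) encode zinc finger proteins as well, and Nnt, a mitochondrial transhydrogenase, rose by 0.44. The others were the predicted genes Gm5141 (0.61), 5430403G16Rik (0.59) and Gm20696 (0.58). Gm20696 ranged from 551 to 674 against 348 to 484 normalized counts. Its annotated span overlaps that of Foxp1 on the same strand, so reads on shared exons of these 2 genes cannot be assigned and its count is uncertain. Very long genes for synaptic and adhesion proteins had 6 higher and 1 lower of 32 (median 0.07), led by the glutamate receptor gene Grm5 at 25054 ± 2264 and 29582 ± 1660 (0.24, SE 0.06), while the cadherin gene Cdh13 fell by 0.34. Among 50 histone lysine methyltransferases and demethylases, 2 were higher and 1 lower, fewer than the 7.26% and 6.96% of all genes.

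Transcripts of the mitochondrial genome and the nuclear genes for the same respiratory chain moved in opposite directions. Of 12 mitochondrial protein-coding genes tested, 8 were higher and none lower (median 0.34). mt-Nd6, a complex I subunit encoded on the strand opposite to the others, ranged from 18035 to 22629 normalized counts (median 20702) in the high libraries and from 13050 to 17844 (median 15507) in the low ones, a log2 fold change of 0.41 (SE 0.08, adjusted p = 0.0257). mt-Nd2, another complex I subunit, rose by 0.44 (SE 0.10) and mt-Cytb, of complex III, by 0.17 (SE 0.06). As a share of all gene counts the mitochondrial genome took 3.27% ± 0.107 against 2.79% ± 0.216 (SD, n = 6 each; adjusted p = 0.0260, exact permutation test).

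Of 87 nuclear genes of oxidative phosphorylation, none was higher and 31 were lower, with a median of -0.14. Uqcc2, an assembly factor of complex III, went from 1798 ± 66.6 in the low to 1590 ± 83.5 in the high libraries (log2 fold change -0.18, SE 0.04, adjusted p = 0.0346), with no overlap, and the complex I subunits Ndufb8 and Ndufv1 fell by 0.26 and 0.21. Together they took 0.694% of gene counts in the high and 0.749% in the low libraries (adjusted p = 0.0416, exact permutation test). Within library numbers 1 to 12 and 13 to 24, 6 and 11 of the 87 lay above 0, and 11 of the 12 mitochondrial genes in each. In each range 1 library stood alone on one side, so these are values without a test, and the median of the cortical markers was -1.85 and -0.75 there. The median of the mitochondrial genes was 0.34 without and 0.19 with the number range in the model. In females mt-Nd6 also followed that range, from 16997 to 22165 in the 6 libraries numbered 1 to 12 and from 10195 to 15744 in the 6 numbered 13 to 24, without overlap.

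Other gene lists, not all of them of short genes, had different counts. Proteasome subunits had 15 lower and none higher of 38 (median -0.10), for example Psmd4, a ubiquitin receptor of the proteasome, at 3290 ± 119 and 2929 ± 150.1 in the low and high libraries (log2 fold change -0.17, adjusted p = 0.0310), and the ATPase Psmc5 (-0.24). Ribosomal protein genes had 1 lower of 86, below the share of all genes, Rpl38 (-0.11, adjusted p = 0.0826), and a median of -0.05 that became 0.02 with the library number range in the model. They took 0.889% and 0.892% of gene counts (adjusted p = 0.964, exact permutation test). Heat shock and DnaJ chaperones had 2 higher and 7 lower of 63 (median -0.06), with Dnajc1 rising by 0.17 and Hspbp1 falling by 0.19. None of 20 immediate early genes, which mark recent neuronal activity, was called, and their median of -0.10 became 0.03 with the number range.

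**Figure D4:**
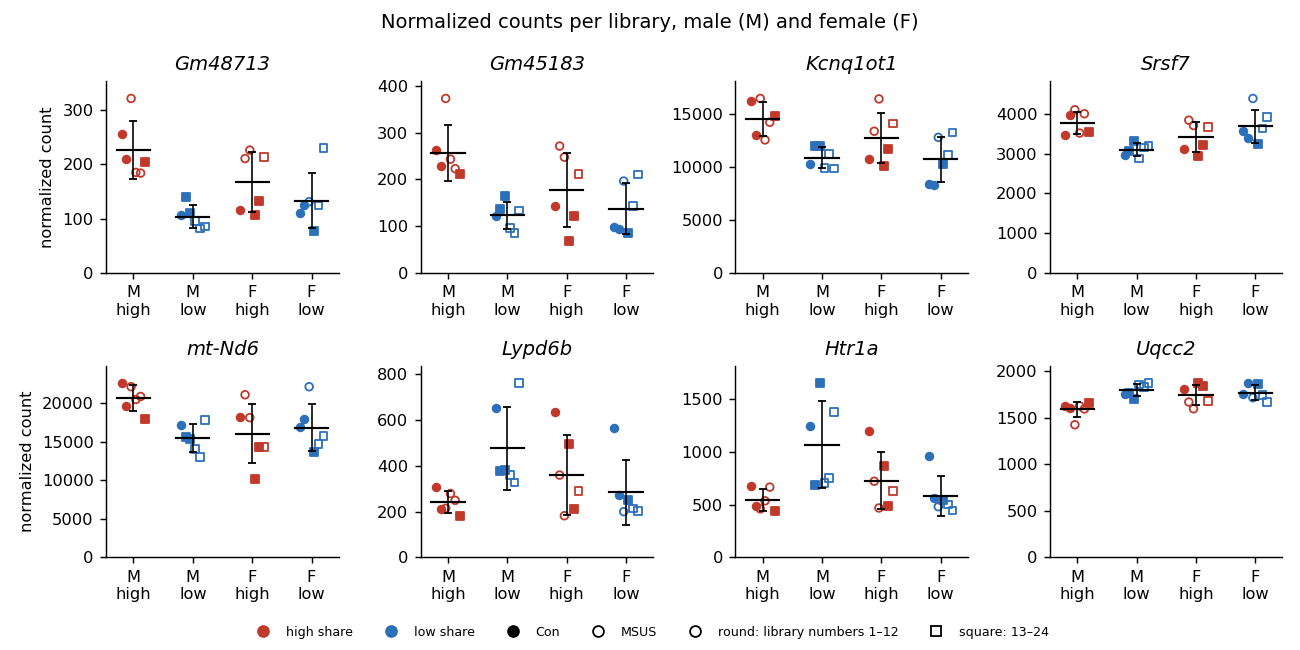
Normalized counts of 8 genes in each male and female library, with mean and SD for the high and the low side of each sex. Filled points are Con and open points MSUS, and round and square points mark library numbers 1 to 12 and 13 to 24. In males, Gm48713, Gm45183, Kcnq1ot1, Srsf7 and mt-Nd6 are higher on the high side and Lypd6b, Htr1a and Uqcc2 lower. The male sides do not overlap in any of the 8. Female sides can overlap, as in Lypd6b with 182 to 633 on the high and 199 to 564 on the low side.

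Among called protein-coding genes without overlap of the 2 sides, the largest falls were those of Lypd6b, Htr1a, Chrm3, Adgra1, Ltk and Masp1. Lypd6b, from a family that modulates nicotinic receptors, ranged from 182 to 309 normalized counts (median 231) in the high and from 326 to 760 (median 381) in the low libraries, a log2 fold change of -0.99 (SE 0.23, adjusted p = 0.0387). The serotonin receptor gene Htr1a ranged from 440.0 to 677 (median 510.4) against 683 to 1651 (median 999.6), a log2 fold change of -0.97 (SE 0.25, adjusted p = 0.0477). The muscarinic receptor gene Chrm3 had 877 ± 132 and 1576 ± 724 (-0.85, SE 0.25, adjusted p = 0.0692), and the adhesion receptor gene Adgra1 1373 ± 166 and 2246 ± 643 (-0.71, SE 0.17). Ltk, a receptor tyrosine kinase gene, fell by 0.55 and Masp1, a protease of the complement system, by 0.50. In each the 2 sides did not overlap, but the low libraries spread far more than the high ones, the SD of Htr1a being 413 against 104. Lypd6b was at 760 in MSUS male 6 and 650 in Con male 5, and at 326 to 383 in the other low libraries. Ltk was at 495 and 449 in these 2, and at 312 to 355 in the others. The same 2 libraries had the highest Slc17a7, a cortical marker (61383 and 40712), and no cause was tested.

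Markers of neighbouring tissue varied on the same libraries. In bulk tissue, fewer cells of a type and less RNA per cell cannot be told apart. All 18 markers of medium spiny neurons, the principal cells of the nucleus accumbens, were detected, with summed levels of 321203 to 406694 normalized counts in the high and 205055 to 382385 in the low libraries. All 18 were above 0 in log2 fold change (median 0.30) and 4 were higher, among them the transcription factors Foxp1 (0.33), Meis2 (0.27) and Bcl11b (0.24). Drd1 and Drd2, the dopamine receptor genes, were at 0.35 and 0.28 with adjusted p = 0.107 and 0.245. Of 16 markers of cortical excitatory neurons, none was called, 1 was above 0 and the median was -1.07, with summed levels of 29842 to 60677 against 27483 to 151764. Slc17a7, the vesicular glutamate transporter of cortical neurons, ranged from 2626 to 15953 in the high and from 1508 to 61383 in the low libraries (log2 fold change -1.64, SE 0.91, adjusted p = 0.280). The highest Slc17a7 values belonged to MSUS male 6, Con male 5 and MSUS male 2, all on the low side, and the lowest to Con male 6 on the same side.

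Short mRNAs of synapses and neuropil, which neurons of many regions express, had 8 lower and none higher of 30 (median -0.12). Stmn2 and Sncb fell by 0.72 and 0.68, and Uchl1, a neuronal ubiquitin hydrolase, from 15107 ± 1220 to 12744 ± 398 (log2 fold change -0.25, SE 0.05, adjusted p = 0.0304). With the cortical score of each library in the model, 3400 genes were called in place of 3024, and the median of the intron models was 0.29. Of these 30 mRNAs 11 were then lower and none higher, although their median became -0.02. Of the 50 genes named by rule, none that was called in males lost its call with that score in the model.

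Markers of other cell types were called in part. The 12 markers of mature oligodendrocytes had 4 lower, among them Mag (9823 ± 492 and 8531 ± 416, log2 fold change -0.21) and Mbp, both of myelin, and their score was 7.31 against 7.44 log2 CPM (adjusted p = 0.0260, exact permutation test), with summed levels of 262237 to 295439 and 284819 to 345878. Oligodendrocyte precursor markers had 3 lower of 10 (median -0.11), interneuron markers 2 lower of 12, one of them Npy (-0.44), and endothelial markers 1 lower of 12, Bsg. Microglia had 1 higher of 12, P2ry12 (0.17), against a median of -0.06 with 2 of 12 above 0, a share of calls near that of all genes (7.26%). Choroid plexus and ependymal markers had a median of 0.36 with 6 of 7 above 0, and 1 was higher, the ciliary Dynlrb2, at 21.3 ± 8.41 against 10.1 ± 3.75 normalized counts. None of 12 astrocyte and 5 blood cell markers was called. No marker was at 0 in every library, and whether these shifts take part in the other results was not tested.

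Counted over all genes, 3024 (14.2%) were called in males and 1004 (4.72%) had log2 CPM values that did not overlap between the 6 high and 6 low libraries. The count rested on single libraries: it was 1130 without MSUS male 1, 1180 without Con male 5, 1331 without MSUS male 5, 1589 without MSUS male 2, 1691 without Con male 3 and 1698 without MSUS male 6. With the library number range in the model, edgeR called 0 genes, with 4296 at an unadjusted p under 0.05, beside 5569 without that term. The median of the intron models was then 0.28, of the genes with detained introns 0.13, of the mitochondrial genome 0.19 and of oxidative phosphorylation -0.13. The number range and the unassigned share cannot be told apart at the level of single genes.

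The 12 females were split in the same way but within Con and within MSUS, because the 2 groups did not overlap in their unassigned share, which was 31.0% to 34.8% in Con and 36.3% to 43.9% in MSUS females. Each female side held 3 libraries numbered 1 to 12 and 3 numbered 13 to 24. Here 1 gene of 21164 (0.00473%) was called by edgeR, with 2701 at an unadjusted p under 0.05 and 247 called by DESeq2. The called gene, Gm10115 (log2 fold change 0.43), was itself a model in an intron, of Celf2, which encodes an RNA-binding splicing regulator. Intron models had a median of 0.20, 1825 of 2176 were above 0, and 579 were higher and 5 lower at an unadjusted p under 0.05. They took 0.473% of gene counts in the high and 0.404% in the low female libraries, with p = 0.00500 in the exact permutation test within groups, the smallest it can give, and an adjusted p of 0.0480. As in males, this order was not independent of the rule. The female sides also differed in unmapped pairs (5.55% and 5.91%) and multimapping pairs (4.75% and 5.20%), both lower on the high side, and each with an adjusted p of 0.0480 in the same test, and their part in the result was not tested. Genes under 10 kb (lower) and genes of 500 kb and over (higher) passed at the same level as shares of gene counts. The class under 10 kb again held the mitochondrial protein-coding genes, at 2.78% in the high and 3.05% in the low female libraries. In 1060 of 1277 female hosts (83.0%) the models lay above the host's exons.

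Of 649 intron models called higher in males and tested in females, 608 (93.7%) were above 0 in females, and of the 651 called in either direction and tested in females, 272 had the same sign and 1 the opposite sign at an unadjusted p under 0.05. Protein-coding genes did otherwise: 129 of 636 called higher (20.3%) and 447 of 1436 called lower (31.1%) had the same sign in females. Across 12654 protein-coding genes with a mean of at least 100 normalized counts, Pearson's r between the male and female fold changes was -0.72. Genes are not independent replicates, and cortical markers lay on opposite sides in the sexes, with a median of -1.07 in males and 1.07 in females, as did medium spiny neuron markers (0.30 and -0.28).

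The difference of the split between males and females was tested in a model of all 24 libraries, in which 2476 of 21919 genes (11.3%) differed. This model held no term for the library number range, which was uneven over the male sides and even over the female sides. A difference between the sexes and the number range in males were therefore not told apart. Of the intron models 58 differed upward and 32 downward, and of the protein-coding genes 690 and 1479. Srsf7 was at 0.28 in males and -0.12 in females (difference 0.40), and 7 of the 28 genes with detained introns differed, all upward. Of the mitochondrial genes 6 of 12 differed (female median -0.17), and of oxidative phosphorylation 16 of 87, all downward (female median -0.02). Lypd6b (0.36 in females), Htr1a (0.32) and Chrm3 (0.54), which fell in males, also differed between the sexes. Kcnq1ot1 was at 0.25 (SE 0.07) in females, with 12718 ± 2374 against 10695 ± 2097, and its difference of 0.17 did not pass (adjusted p = 0.369). Thus the intron models shared their direction between the sexes. Srsf7, the median mitochondrial gene, Lypd6b and the receptor genes Htr1a and Chrm3 lay on opposite sides of 0.

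**Figure D5:**
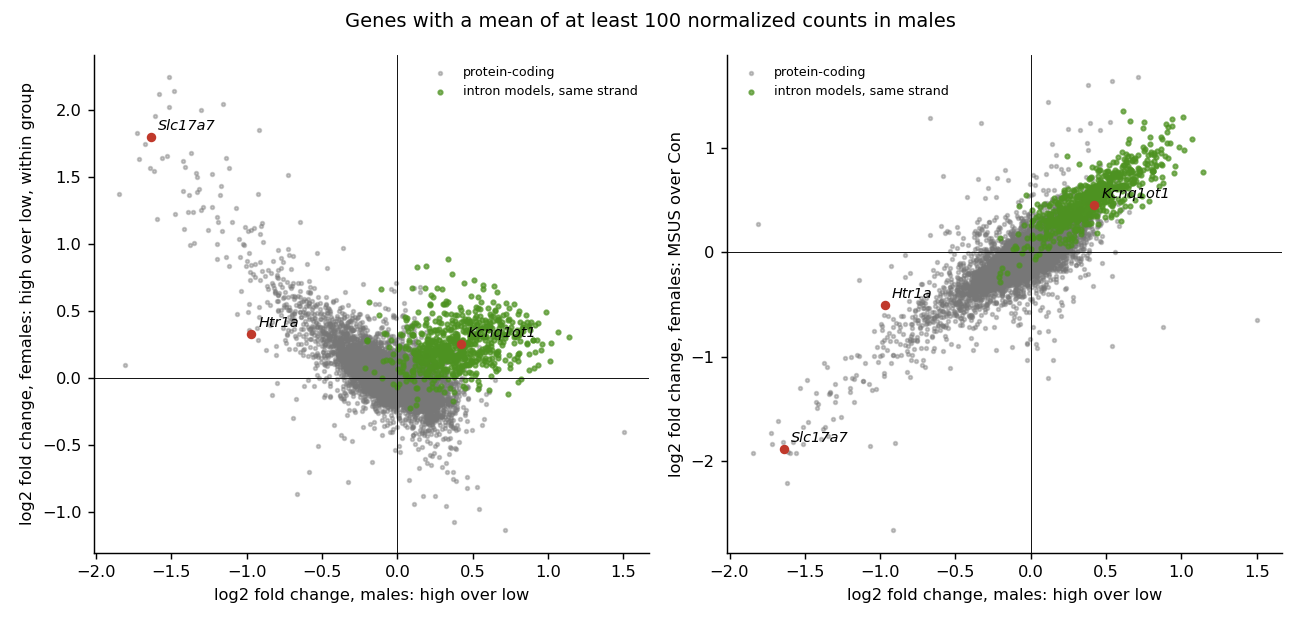
Log2 fold change of the male split (horizontal axis) against that of the female split within groups (left) and of MSUS over Con in females (right), for protein-coding genes (grey) and intron models (green) with a mean of at least 100 normalized counts. Pearson's r across all 14333 genes at that level, of any class, is -0.42 on the left and 0.83 on the right, and Slc17a7, Htr1a and Kcnq1ot1 are labelled.

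Within males, the stress groups were compared with the split in the model. MSUS against Con then gave 0 of 21270 genes (0%) by edgeR and 0 by DESeq2, with 260 and 301 at an unadjusted p under 0.05, and without the split edgeR had 191 at that level. The interaction of the split with stress, which asks whether the high-low difference was unlike in Con and MSUS mice, gave 0 of 21608 (0%) by edgeR, with 569 at an unadjusted p under 0.05, and 0 by DESeq2, with 510. Intron models had a median log2 fold change of -0.06 for MSUS over Con males. With 3 mice in each combination, a difference that did not pass is not shown to be absent.

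In females, where MSUS libraries all had a higher unassigned share than Con libraries, MSUS against Con called 5156 of 20571 genes (25.1%). Of the intron models 1015 were higher and 1 was lower, with a median of 0.42, and of the 87 genes of oxidative phosphorylation 68 were lower and none was higher. Of 2998 genes called in the male split and tested there, 2937 (98.0%) had the same sign in MSUS over Con females, beside 77.3% of 20529 genes overall. Cortical markers lay on the same side in both, with medians of -1.07 and -1.49, and 5 of 16 were lower in MSUS females. Both comparisons called 1842 genes, 61.4% of the male calls and 35.7% of the female ones, and 1841 of these had the same sign. No library is shared between the 2 comparisons. Stress and unassigned share cannot be told apart between the female groups, and the male split holds 3 Con and 3 MSUS mice on each side.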

How the data were processed

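RNA-seq was measured in 24 mouse nucleus accumbens libraries (total RNA, ribosomal RNA depleted). The authors aligned read pairs to mm10 with STAR (2.6.1b per the labels) using the GENCODE M15 annotation and deposited, per library, raw read counts per gene in 3 strand columns; the sense column (column 4) was used here. Gene totals ranged from 39923666 to 70575745, so precision was limited by the number of mice and not by counting, except for genes near the filter of 10 counts. Names, introns and spans came from GENCODE M21 on GRCm38 (52489 of 52636 identifiers matched), and sequences from that annotation's transcripts. Unassigned pairs are those on no feature, as a share of pairs on genes, on no feature or ambiguous; gene counts enter only through their total.

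edgeR 4.0.16 (R 4.3.3) was used for a robust quasi-likelihood F test with TMM scaling, filterByExpr at 10 counts and Con or MSUS as covariate; Benjamini-Hochberg adjusted p under 0.10 was called. Standard errors are the absolute log2 fold change over the root of F. DESeq2 1.42.0 gave size factors over 24 libraries and an alternative test. Shares and marker scores (median log2 CPM of a list, prior count 2) used exact two-sided permutation tests, adjusted over 24 values. For females the permutations ran within Con and MSUS. Shares leave mitochondrial genes out of the total, except their own. The share of genes under 10 kb still counts mitochondrial protein-coding genes. In simulated male data on 21069 genes, 50.0% of genes changed by 0.5 and 84.2% changed by 1 on the log2 scale were recovered, with 5 false calls. The simulated counts were independent and held no structure by library number or cortical content. The false calls therefore do not measure those that such structure could give. Replicate numbers did not pair the mice (same-numbered Con and MSUS males correlated at -0.38 to 0.26). No 2 libraries of a group agreed within sampling noise (the lowest chi-square per gene of 60 pairs was 6.34).

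Named genes were those with the largest changes among called genes without overlap and a mean of at least 100 normalized counts, a top gene per list and genes fixed by name; further list members were named after their values were seen, and 1 gene is not reported here. The members and the 23 gene lists were chosen with earlier results of these data known. Alternatives covered filter, scaling, strand column, tool, threshold, covariates and each library left out.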

Additional observations from a re-analysis of the deposited data

Results flagged for a closer look

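In 7 of 102 groups of 6 libraries examined, 1 library lay farther from the others than Dixon's 95% critical value for 6 samples, where chance gives about 1 in 20 groups. MSUS male 1, which had the highest unassigned share, gave 4 of the 7 among the high libraries: the intron models 5330437M03Rik (196 normalized counts), Gm43874 (337) and Gm45183 (373), all the highest of the 6, and Uqcc2 (1426), the lowest. Con male 4 was highest in Hbb-bs (7330), a haemoglobin gene, and Con male 3 lowest in P2ry12 (1290), both among the high libraries. MSUS male 6 was highest in Uchl1 (17405) among the low libraries. No cause was tested.

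The high-low effect differed between males and females in 2476 genes (edgeR, adjusted p under 0.10). The model held no term for the library number range or for the narrower female split. Among the genes named here the male minus female difference on the log2 scale was positive for the intron models Gm43874 (0.88), Gm48713 (0.83), 5330437M03Rik (0.76) and Gm45183 (0.72), for the lncRNA gene Gm15809 (0.89), and for the protein-coding rises 5430403G16Rik (0.78), Gm5141 (0.72), Zxdb (0.62), Zfp934 (0.52) and Gm20696 (0.39). It was positive as well for the medium spiny neuron gene Drd1 (0.65), for Rmrp (0.48), Grm5 (0.41), Srsf7 (0.40), Zfp950 (0.39), P2ry12 (0.32), Kdm6a (0.17) and Dnajc1 (0.14). Negative differences were found for Chrm3 (-1.39), Lypd6b (-1.35), Htr1a (-1.30), Adgra1 (-1.14), Tshz3 (-0.90), Ltk (-0.77), Masp1 (-0.65), Uchl1 (-0.28), Bsg (-0.18), Psmd4 (-0.16) and Uqcc2 (-0.16). In these 4 intron models the female values were above 0 as well, and each model had been chosen for its male rise.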

How the results depend on the processing

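The male count of 3024 genes became 1865 with no filter, 6511 with the share as a continuous term, 1240 at an adjusted p under 0.05, 0 with the library number range and 0 with the replicate block, which had 1431 at an unadjusted p under 0.05, and it ranged from 1130 to 3302 with 1 library left out. It was within 1.5 times the reported count under DESeq2 (3950), size factors (2942), a stricter filter (3214), counts without strand (3732), the cortical score (3400), no stress term (3563) and without the libraries at the threshold (3349). The female count of 1 became 32 with no filter, 7 with the stricter filter, 44 with the continuous share, 247 with DESeq2, and 0 without strand, with the replicate block, the number range, the cortical score, an adjusted p under 0.05 or without the libraries at the threshold; it ranged from 0 to 48 with 1 library left out (48 without Con female 6, 5 without Con female 2, otherwise 0). The stress and interaction counts in males were 0 under every alternative run. The intron models' median in females moved from 0.20 to 0.27 without the libraries at the threshold. The median of protein-coding genes under 10 kb in males moved from -0.071 to -0.047 with the number range. Of the 24 values per library, 5 passed an adjusted p under 0.05 in males and 3 to 6 with 1 library left out, 3 being without MSUS male 6. The intron models' median in males was 0.25 to 0.33 with 1 library left out.

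Of the 50 named genes in males, all 36 called ones lost the call with the number range and with the replicate block. The replicate numbers share no animal, no batch is stated for them, and 1 of 6 males correlated best with its own number. Odd replicate numbers all lay in the lower library number range and even ones in the upper, so the block contained that range. In males only replicates 4 and 5 held both a high and a low library. The calls lost with the block are therefore not a check separate from the number range. Over the alternatives, the named male genes kept side and direction in 939 values, lost the call in 137, gained it in 18 and changed sign while uncalled in 5, and no call reversed. Splitting by the strandless share or by the share of all pairs moved no library, and library numbers 7 to 12 or 19 to 24 alone left 1 library on one side and gave no test. Covariates for the number range and the cortical score, values within number ranges and the male-female model were added after the data were seen. The causes of these changes were not tested.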
